A study of Mus musculus with 20 samples.

Results

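Ankrd33, also known as Panky, is a photoreceptor gene that encodes an ankyrin repeat protein. In the deposited data it was 1 of 566 genes in the table for postnatal day 2 (P2) and 1 of 1497 genes in the table for postnatal day 21 (P21), found by its symbol in each. It was selected on its FPKM values in these same samples, so all of its levels below are a description and carry no test. RNA from whole retina of C57BL/6J mice was sequenced in 5 genotypes at each age. These were CrxRip/+ and CrxRip/Rip, which carry 1 or 2 copies of the Rip allele, a dominant mutation of the photoreceptor homeobox gene Crx. The others were Crx-/-, with Crx disrupted on both chromosomes, Nrl-/-, which lacks the rod fate factor Nrl, and the wild type (WT). Each genotype had 2 samples at each age, 20 in all, and a sample pooled 2 retinas. The labels do not say whether the samples of a genotype came from separate litters, so p-values measure the spread between these samples only.

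Crx and its relative Otx2 are homeobox activators that switch on most genes of rods and cones, Nrl commits a photoreceptor precursor to the rod fate, and Nr2e3 works beneath Nrl to keep cone genes off in rods. The Ankrd33 protein has been described in mouse retina as a transcriptional cofactor that dampens activation by CRX of phototransduction genes, the genes whose products turn light into a change of membrane current. Ankrd33 is thus a photoreceptor gene whose product is reported to act back on other photoreceptor genes.

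Ankrd33 lies on mouse chromosome 15 at chr15:101115755-101120040 on the plus strand (GRCm38, GENCODE M21). Its listed transcript, NM_144790, matched a model of 4 exons and 1460 bases, with a coding length of 1014 bases and a product of 337 amino acids. No other annotated gene overlapped it.

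Values were FPKM, the fragments of a transcript divided by its length and by the mapped fragments of the library, rounded by the authors to 1 decimal, with the read depth behind them unknown. Every gene of both tables passed the authors' thresholds in at least 1 comparison, so each share of called genes below is a share of genes that had already been picked for a difference, and genes without one were not analysed here. The summed FPKM of the P21 table lay between 21569.4 and 40702.0 in mutant samples, against 55335.3 and 53395.9 in WT samples, and the part of this gap in the differences below was not tested. Gnat1, the rod transducin subunit, marked the WT samples at P21 as photoreceptor tissue, with 4373.3 and 4352.0 FPKM. Nrl stood at 0.2 FPKM in both Nrl-/- samples at P21, against 466.1 and 427.6 FPKM in WT samples. The Crx value checks neither Crx allele, because transcript remained in the mutants, with 167.9 and 171.4 FPKM in Crx-/- against 350.7 and 343.9 FPKM in WT. Summed markers of other cells differed between genotypes too. The summed FPKM of Sox9 and Gfap, the 2 of 10 Müller glia markers in the P21 table, was 10.7 to 30.0 in mutant samples and 6.1 to 6.6 in WT samples. The 4 of 8 pigment epithelium markers there summed to 21.2 to 48.2 FPKM in mutant samples and 5.5 to 12 FPKM in WT samples. The 3 of 12 bipolar cell markers summed to 214.8 and 207.1 FPKM in Nrl-/-, 49.7 and 56.8 FPKM in CrxRip/Rip and 82.4 to 97.8 FPKM in the other mutants, against 74.5 and 92.5 FPKM in WT. The 2 of 6 horizontal cell markers summed to 236.7 and 232.0 FPKM in Nrl-/- and 63.3 to 115.5 FPKM in the other mutants, against 73.9 and 71.3 FPKM in WT. These sums hide members that moved apart. In Nrl-/- the log2(FPKM + 1) difference from WT was 1.90 for Lhx4 and 2.00 for Cabp5, but -0.35 for Prkca, all bipolar markers. Of the horizontal cell markers there, Sphkap was at 1.97 and Calb1 at 0.25. In CrxRip/Rip and Crx-/- Sphkap was at 0.63 and 0.84, and Calb1 at -0.64 and -0.47. Of the glia markers, Gfap was at 1.00 and Sox9 at 0.02 in Nrl-/-. No member of the amacrine and ganglion cell lists was in either table. The part of these cells in the results was not tested.

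At P2, when rods are still being born, Ankrd33 was a weakly expressed gene. It measured 2.8 and 3.0 FPKM in CrxRip/+ retina, against 4.3 and 4.1 FPKM in WT retina. CrxRip/Rip retina held 2.6 and 2.2 FPKM. Crx-/- retina held 1.2 and 1.1 FPKM, the lowest values of the age. Nrl-/- retina held 3.2 and 3.4 FPKM. All 8 mutant samples therefore lay below both WT samples, and no 2 neighbours in the order of genotypes overlapped, which ran WT, Nrl-/-, CrxRip/+, CrxRip/Rip and Crx-/- downward. The gaps between the nearest samples of Nrl-/- and CrxRip/+, and of CrxRip/+ and CrxRip/Rip, were 0.2 FPKM each and no larger than the range within a group. The gap from CrxRip/Rip to Crx-/- was 1.0 FPKM.

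The mean at P2 was 2.9 ± 0.14 FPKM for CrxRip/+, 2.4 ± 0.28 for CrxRip/Rip, 1.15 ± 0.07 for Crx-/-, 3.3 ± 0.14 for Nrl-/- and 4.2 ± 0.14 for WT (SD, n = 2 each). Relative to WT this was 69.0% for CrxRip/+, 57.1% for CrxRip/Rip, 27.4% for Crx-/- and 78.6% for Nrl-/-. Rounding alone allows 25.9% to 28.9% for Crx-/-. On the log2(FPKM + 1) scale, which understates changes of low values, the differences from WT were -0.42, -0.62, -1.27 and -0.27 in the same order of mutants. The median difference of all genes in the table was -0.02 for CrxRip/+, -0.06 for CrxRip/Rip, -0.14 for Crx-/- and -0.76 for Nrl-/-. The Nrl-/- value of Ankrd33 was thus less negative than the median gene of its table, and it turned to 0.58 when the samples were rescaled to a common median of ratios.

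At P21, when photoreceptors are formed, the level was high in 4 genotypes and low in the fifth, Crx-/-. Ankrd33 measured 104.9 and 88.0 FPKM in CrxRip/+ retina, against 78.2 and 71.2 FPKM in WT retina. CrxRip/Rip retina held 52.9 and 71.7 FPKM. Crx-/- retina held 2.8 and 2.2 FPKM, and every other sample of the age was at 52.9 FPKM or above. Nrl-/- retina held 99.7 and 100.5 FPKM. Both CrxRip/+ samples and both Nrl-/- samples lay above both WT samples, while one CrxRip/Rip sample lay between the WT samples and the other below them. Whole retina was measured, so fewer cells of a type and less RNA per cell cannot be told apart.

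**Figure D1:**
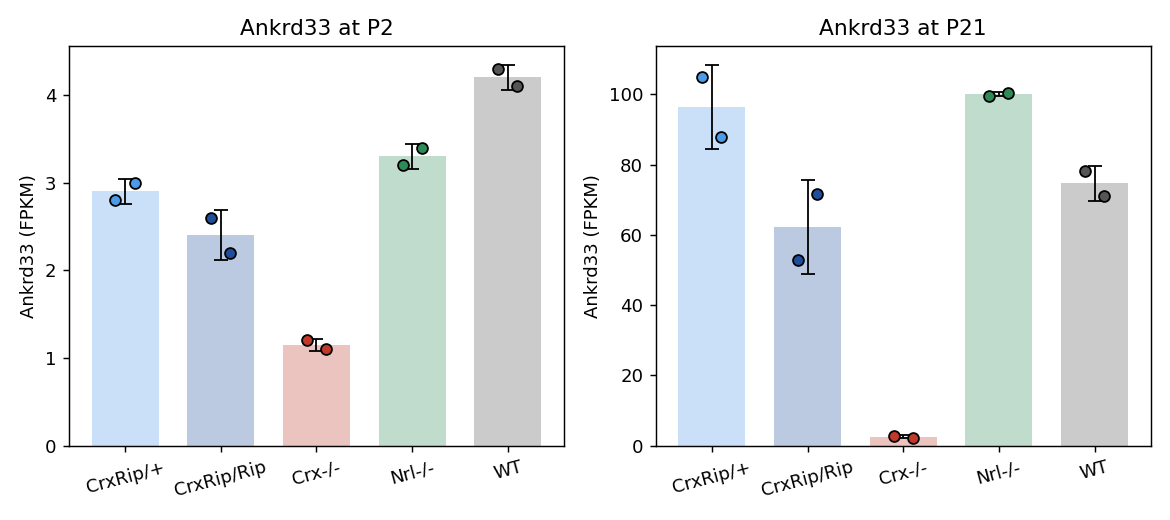
Ankrd33 level in FPKM on the vertical axis, by genotype on the horizontal axis, at P2 (left) and P21 (right). Points are samples, bars are means of 2 samples and error bars are SDs. Crx-/- is lowest at both ages, at 2.5 FPKM (P21) and 1.15 FPKM (P2), and the P21 levels of CrxRip/+ and Nrl-/- lie above WT.

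The P21 means were 96.5 ± 12 FPKM for CrxRip/+, 62.3 ± 13.3 for CrxRip/Rip, 2.5 ± 0.42 for Crx-/-, 100.1 ± 0.57 for Nrl-/- and 74.7 ± 4.95 for WT (SD, n = 2 each). Crx-/- retina therefore kept 3.35% of the WT level, while CrxRip/+ stood at 129%, CrxRip/Rip at 83.4% and Nrl-/- at 134%. In the order of levels, Nrl-/- and CrxRip/+ overlapped, as did CrxRip/Rip and WT, and a gap of 50.1 FPKM separated the lowest CrxRip/Rip sample from the highest Crx-/- sample. The log2(FPKM + 1) differences from WT were 0.36 for CrxRip/+, -0.27 for CrxRip/Rip, -4.44 for Crx-/- and 0.42 for Nrl-/-, beside medians over all genes of 0.13, -0.14, -0.04 and 0.17. The 2 positive values shrank to 0.19 each under rescaling, and the CrxRip/Rip value ran from -0.49 to -0.06 when single samples were left out. In the authors' deposited table the log2 fold changes were 0.15 for CrxRip/+, -0.48 for CrxRip/Rip, -5.12 for Crx-/- and 0.32 for Nrl-/- against WT.

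The 2 ages were scaled in separate tables and are set side by side without a test. Crx-/- retina had 2.5 FPKM at P21 and 1.15 FPKM at P2, and WT retina had 74.7 FPKM at P21 and 4.2 FPKM at P2. The late level in Crx-/- was thus below the early level in WT. In the 2 CrxRip genotypes and in Nrl-/- the P21 samples were all at 52.9 FPKM or above, whatever their difference from WT at P2.

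The Rip allele and the Crx-/- genotype, both mutations of Crx, gave contrasting levels. At P21 the mean of Ankrd33 was 38.6 times as high in CrxRip/+ as in Crx-/- and 24.9 times as high in CrxRip/Rip as in Crx-/-, which is 4.80 and 4.17 on the log2(FPKM + 1) scale. These were the largest positive differences among the 1497 genes in both comparisons. The next gene was Rcvrn (recoverin, a calcium sensor of photoreceptors) at 3.45 in CrxRip/+ over Crx-/-, and Acbd7 at 3.82 in CrxRip/Rip over Crx-/-. At P2 the same ratios were 2.52 and 2.09, or 0.86 and 0.66 on the log2(FPKM + 1) scale, and Ankrd33 ranked 18 and 42 from the top of 566 genes. In the authors' deposited table the log2 fold change of Ankrd33 was at least 1 in size in 4 of 10 comparisons at each age. All 4 were those that include Crx-/-. The largest of the others was -0.84 at P2, for CrxRip/Rip against WT, and -0.78 at P21, for CrxRip/Rip against Nrl-/-. Genes entered the table by passing such a cut, so this is a description.

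Ankrd33 was not the gene with the largest loss in Crx-/- retina. At P21 the difference from WT was larger for 15 genes, among them Gnat1 and the cone opsins Opn1mw and Opn1sw. Those 15 genes were also far below WT with the Rip allele, with differences of -2.24 or lower in CrxRip/+ and of -4.21 or lower in CrxRip/Rip on the log2(FPKM + 1) scale. Of 92 genes at least 2 log2 units lower in Crx-/- than in WT at P21, Ankrd33 was the 1 gene within 1 unit of WT in the other 3 mutants. With a fall of at least 1 unit, 41 of 305 genes met the same condition. At P2 a fall of at least 1 unit was met by 28 genes, and 4 of these stayed within 1 unit elsewhere, namely Ankrd33, Gsta4, Piezo1 and Slc1a5. These limits were set after the values were seen, and the counts are a description of the table.

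**Figure D2:**
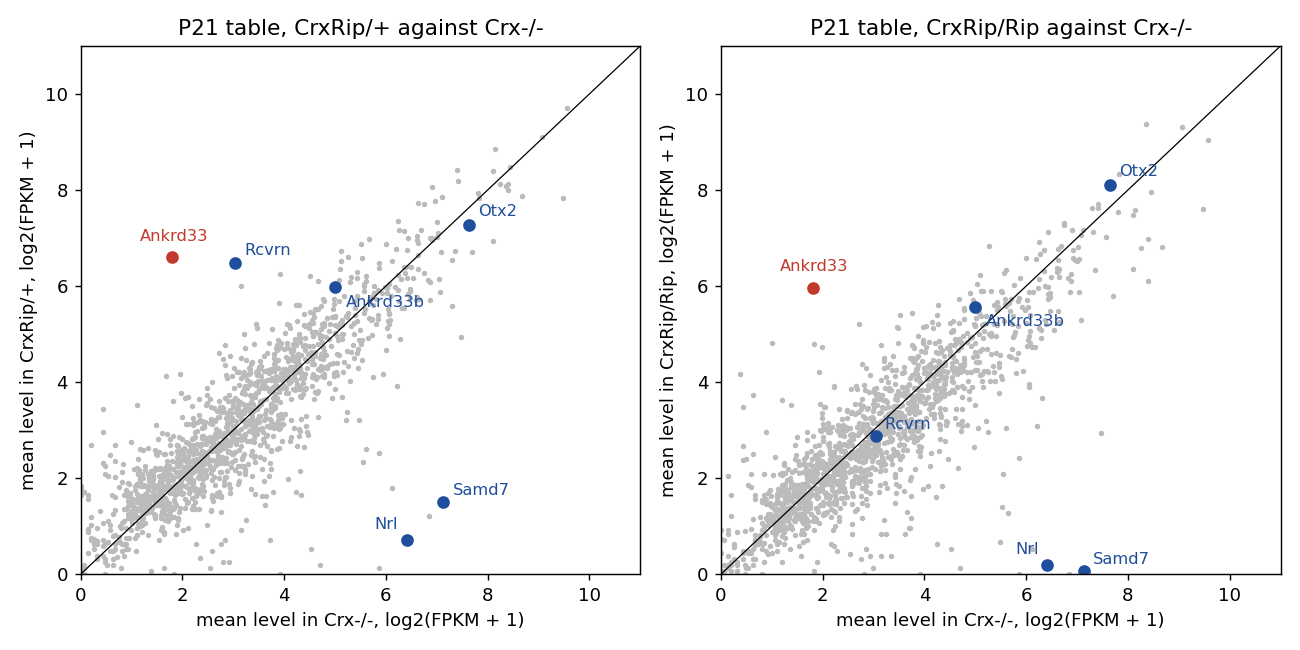
Mean level of each of the 1497 genes of the P21 table in Crx-/- retina (horizontal axis) against CrxRip/+ (left) and CrxRip/Rip (right) on the vertical axis, both in log2(FPKM + 1), with the line of equal level. Each point is a gene and the mean of 2 samples. Ankrd33 lies farthest above the line in both panels, by 4.80 and 4.17, and Nrl and Samd7 lie far below it.

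The factors that act on photoreceptor genes were compared with WT in a limma fit of log2(FPKM + 1) over all genes of the table, with Benjamini-Hochberg adjustment and a threshold of 0.05. Of 15 photoreceptor transcription factors, 11 were in the P21 table. In CrxRip/+ retina 3 rose and 6 fell, where 39.5% and 35.0% of all genes in the table did. In CrxRip/Rip 4 rose and 7 fell, beside 36.3% and 44.3% of all genes. In Crx-/- 4 rose and 5 fell, beside 39.8% and 41.5%, and in Nrl-/- 4 rose and 6 fell, beside 40.4% and 31.8%. None of the 11 was as low against WT in Crx-/- as Ankrd33, the lowest being Esrrb at -3.64.

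Otx2 rose in all 4 mutants at P21. It measured 153.3 and 152.7 FPKM in CrxRip/+, 263.5 and 289.0 in CrxRip/Rip, 211.6 and 186.8 in Crx-/-, 126.3 and 107.2 in Nrl-/- and 81.0 and 80.1 in WT. No mutant sample overlapped WT, and the limma adjusted p was 9.32e-05, 1.48e-06, 9.67e-06 and 0.00224 in the same order. Otx2 was therefore raised in Crx-/- retina, where Ankrd33 was nearly lost, as well as where Ankrd33 was kept. The part of Otx2 in the level of Ankrd33 was not tested. Crx transcript fell by 0.83 in CrxRip/Rip and fell by 1.03 in Crx-/- (log2 scale, limma adjusted p = 0.000353 and 9.84e-05), to means of 196 and 170 FPKM, against 347 FPKM in WT. Ankrd33 stood at 62.3 and 2.5 FPKM in these mutants. The difference in Crx between CrxRip/Rip and Crx-/- was 0.20 (SE 0.13, limma adjusted p = 0.209), and it passed the threshold after rescaling or without CrxRip/Rip replicate 1.

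Of the 11 factors at P21, 1 was higher and 8 were lower in CrxRip/+ over Crx-/-, beside 29.9% and 22.7% of all genes. In CrxRip/Rip over Crx-/- 2 were higher and 6 lower, beside 19.4% and 33.9%. Nrl and Samd7 showed the reverse of the contrast of Ankrd33. Nrl fell to 0.65 FPKM in CrxRip/+ and 0.15 FPKM in CrxRip/Rip, while Crx-/- retina kept 84.6 FPKM, against 447 FPKM in WT. The difference was -5.71 for CrxRip/+ over Crx-/- and -6.22 for CrxRip/Rip over Crx-/- (limma adjusted p = 6.86e-08 and 2.6e-08). Samd7, a photoreceptor repressor of non-rod genes, had 0.0 and 0.1 FPKM in CrxRip/Rip against 146.2 and 132.6 FPKM in Crx-/-. It was the gene with the largest negative difference of that comparison, at -7.06, where Ankrd33 had the largest positive one. In Nrl-/- retina, with Nrl at 0.2 FPKM, Ankrd33 was at 100.1 FPKM. The part of Nrl and Samd7 in the level of Ankrd33 was not tested.

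At P2, 6 of the 15 factors were in the table. In CrxRip/+ none rose and 3 fell, beside 3.71% and 12.7% of all genes, and in CrxRip/Rip none rose and all 6 fell, beside 5.83% and 21.2%. In Crx-/- none rose and 1 fell, beside 9.19% and 20.7%, with 1 rising and 1 falling after rescaling. In Nrl-/- 1 rose and 5 fell, beside 18.9% and 64.7%, with 3 rising and 3 falling after rescaling. Nrl itself differed from WT by 0.04 in Crx-/- retina at P2 (SE 0.14, limma adjusted p = 0.823), which does not show equal levels. Ankrd33 was at 27.4% of WT in these samples. Here too the part of Nrl in the level of Ankrd33 was not tested.

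Phototransduction genes are the set on which Ankrd33 has been reported to act. All 32 listed rod, cone and shared regulator genes were in the P21 table. In CrxRip/+ 6 rose and 25 fell with a median difference of -2.46, beside 39.5% and 35.0% of all genes. In CrxRip/Rip 5 rose and 26 fell with a median of -3.34, beside 36.3% and 44.3%. In Crx-/- 6 rose and 24 fell with a median of -1.87, beside 39.8% and 41.5%. In Nrl-/- 11 rose and 18 fell with a median of -0.86, beside 40.4% and 31.8%. The medians of all genes were 0.13, -0.14, -0.04 and 0.17. Every one of the 11 rod genes fell in each mutant, and the 11 cone genes all rose in Nrl-/-.

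Set beside these genes, Ankrd33 changed rank between mutants. In CrxRip/Rip 26 of the 32 genes were lower relative to WT than Ankrd33, and in CrxRip/+ likewise 26, whereas in Crx-/- 8 were lower and 24 were higher. Of all 1497 genes, 697 were lower than Ankrd33 in CrxRip/Rip, 884 in CrxRip/+ and 15 in Crx-/-. Gnat1 shows the pattern of a rod gene. It had 4.6 and 1.1 FPKM in CrxRip/+, 0.2 and 0.4 in CrxRip/Rip, 10 and 8.4 in Crx-/-, 0.3 and 0.3 in Nrl-/- and 4373.3 and 4352.0 in WT. All mutants were far below WT, while Ankrd33 stayed at 52.9 FPKM or above in every mutant but Crx-/-. Its log2(FPKM + 1) difference from WT was smallest in Crx-/-, at -8.75, the mutant where that of Ankrd33 was largest. Opn1sw, the short-wave cone opsin, had 1.2 and 0.9 FPKM in CrxRip/+, 0.2 and 0.2 in CrxRip/Rip, 2.7 and 2.7 in Crx-/-, 2501.0 and 2298.6 in Nrl-/- and 164.5 and 141.0 in WT. Opn1sw was thus above WT in Nrl-/- alone, whereas Ankrd33 was above WT in CrxRip/+ as well. That difference of Ankrd33 in CrxRip/+ was small, at 0.36, 0.19 after rescaling and 0.15 in the authors' deposited table.

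Between mutants, most of the phototransduction genes that passed the test moved opposite to Ankrd33. In CrxRip/Rip over Crx-/- at P21, 1 of 32 was higher and 24 were lower, with a median of -0.88 against 4.17 for Ankrd33. Among all genes tested, 19.4% were higher and 33.9% lower. In CrxRip/+ over Crx-/- 11 were higher and 16 were lower with a median of -0.26, beside 29.9% and 22.7% of all genes. Rcvrn was among the higher ones, with 131.1 and 60.2 FPKM in CrxRip/+ against 7.5 and 7.0 FPKM in Crx-/-, a difference of 3.45 (SE 0.40, limma adjusted p = 0.000233). In CrxRip/Rip it had 4.0 and 9.8 FPKM, which overlaps Crx-/-.

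At P2, 18 of the 32 phototransduction genes were in the table. In CrxRip/+ none rose and 14 fell with a median of -1.34, beside 3.71% and 12.7% of all genes. In CrxRip/Rip none rose and all 18 fell with a median of -2.43, beside 5.83% and 21.2%. In Crx-/- 1 rose and 8 fell with a median of -0.16, and after rescaling 2 rose and 7 fell. In Nrl-/- 5 rose and 7 fell with a median of -0.28, and after rescaling 11 rose and 6 fell. Over the whole P2 table the same rescaling changed the calls in Crx-/- to 86 higher and 57 lower, where the values as deposited gave 52 and 117, and in Nrl-/- to 188 and 96, where they gave 107 and 366. In CrxRip/Rip all 18 genes were lower relative to WT than Ankrd33, beside 101 of all 566 genes. In Crx-/- 4 of the 18 were lower, beside 15 of all 566. Among those 4 was Opn1sw, with 1.8 and 2.5 FPKM in Crx-/- against 40.6 and 43.0 FPKM in WT.

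**Figure D3:**
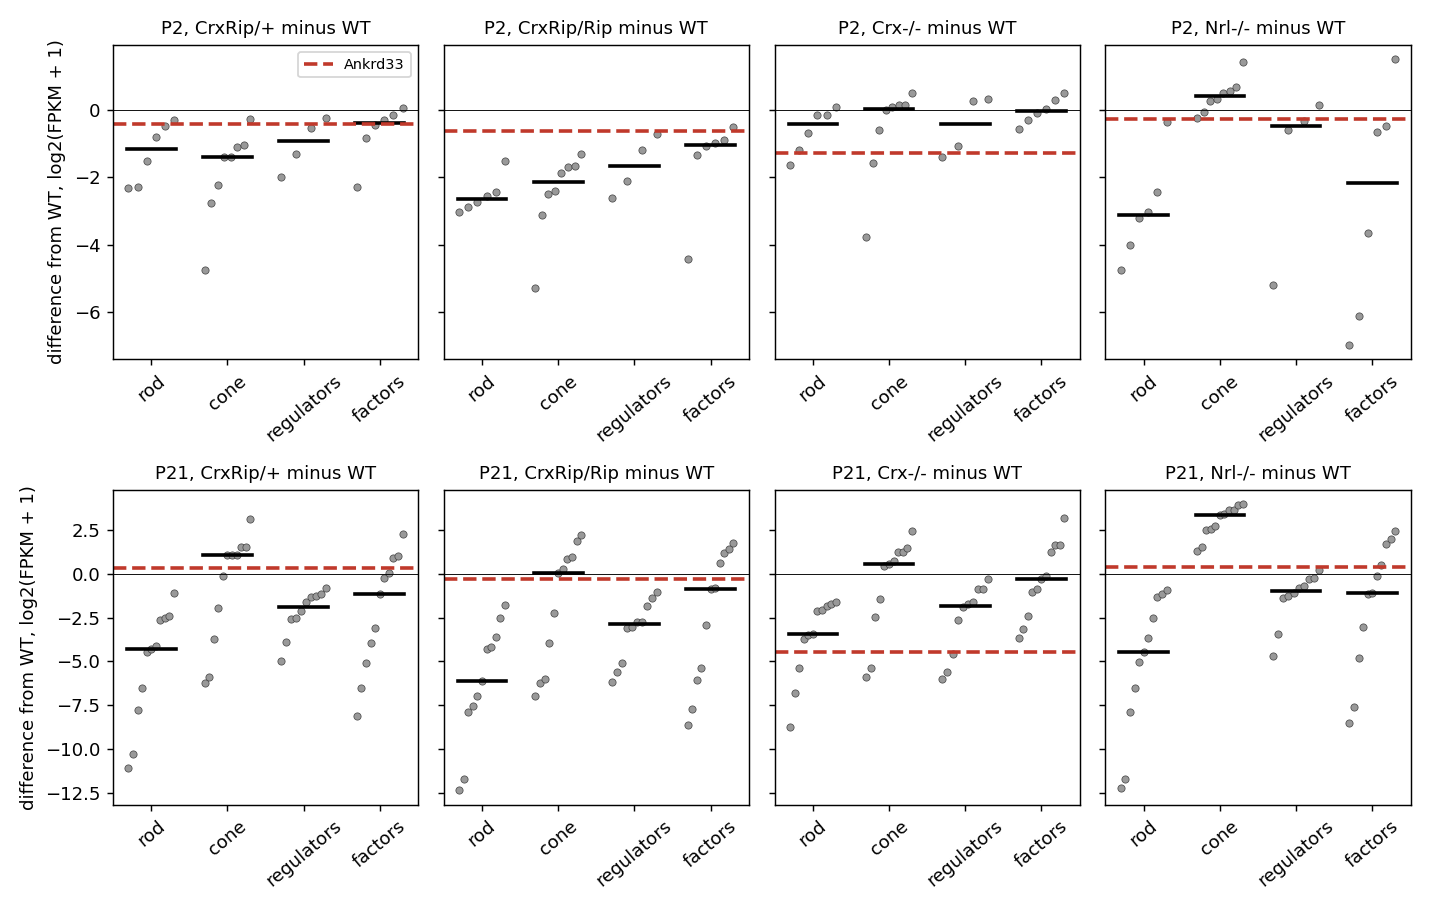
Difference from WT on the log2(FPKM + 1) scale (vertical axis) for rod, cone and regulator genes of phototransduction and for photoreceptor transcription factors (horizontal axis), at P2 (top) and P21 (bottom), for each mutant. Each point is a gene, the black bar is the median of its list and the dashed line is Ankrd33. At P21 the line lies above all rod genes in CrxRip/+, CrxRip/Rip and Nrl-/- and at -4.44, below the medians, in Crx-/-. The P2 value of Ankrd33 in Nrl-/- changes sign under rescaling.

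Outer segment and visual cycle genes, which build and supply the light-sensing compartment, were mostly lower than WT in each mutant. All 18 listed genes were in the P21 table. In CrxRip/+ none rose and 13 fell, in CrxRip/Rip none rose and all 18 fell, in Crx-/- none rose and 16 fell, and in Nrl-/- 3 rose and 13 fell. In the same order 35.0%, 44.3%, 41.5% and 31.8% of all genes were lower, and 39.5%, 36.3%, 39.8% and 40.4% were higher. The medians of the 18 genes were -1.71, -3.04, -1.62 and -0.75, those of all genes were 0.13, -0.14, -0.04 and 0.17, and Ankrd33 stood at 0.36, -0.27, -4.44 and 0.42.

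Ankrd33b is the paralogue of Ankrd33 and was in the P21 table only. It had 68.5 and 55.8 FPKM in CrxRip/+, 43.9 and 49.4 in CrxRip/Rip, 30.3 and 31.6 in Crx-/-, 38.4 and 39.4 in Nrl-/- and 47.8 and 48.0 in WT. Crx-/- was the lowest genotype, as for Ankrd33, and its samples overlapped no other group. The difference from WT was -0.61 in Crx-/- (SE 0.11, limma adjusted p = 0.000889) and -0.04 in CrxRip/Rip (adjusted p = 0.748 in the same limma fit). CrxRip/+ exceeded Crx-/- by 0.98 and CrxRip/Rip exceeded it by 0.57 (limma adjusted p = 0.000195 and 0.00278). Against WT the CrxRip/+ value of 0.36 and the Nrl-/- value of -0.29 had limma adjusted p = 0.0163 and 0.0395, and both calls were lost when single WT samples were left out. In Nrl-/- retina Ankrd33b was thus below WT in both samples, where Ankrd33 was above it.

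The other ankyrin repeat genes did not share this order. At P21 Ankrd27, a regulator of vesicle traffic, fell in CrxRip/+ by 0.69, in CrxRip/Rip by 0.92 and in Crx-/- by 0.67 (limma adjusted p = 0.000166, 2.24e-05 and 0.00015). Its means were 3.35, 2.70 and 3.40 FPKM, against 6.00 FPKM in WT. Anks1b rose in CrxRip/Rip by 1.08 (limma adjusted p = 0.000157), with 12.8 and 9.0 FPKM against 4.8 and 4.3 FPKM in WT. At P2 Ankrd37 and Ankrd34a were in the table, and neither was called in CrxRip/+, CrxRip/Rip or Crx-/-. In Nrl-/- they were lower by limma, at -1.02 and -0.74, and both calls were lost after rescaling.

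Of 27 protein-coding genes within 500 kb of Ankrd33, none was in the P2 table and 2 were in the P21 table. Nr4a1, an immediate early nuclear receptor, rose in all 4 mutants, with means of 24.8 FPKM for CrxRip/+, 12 for CrxRip/Rip, 13.6 for Crx-/-, 25 for Nrl-/- and 7.45 for WT. It was therefore higher than WT in Crx-/-, by 0.79 (limma adjusted p = 0.000498). Acvrl1, an endothelial receptor of the TGF-beta family, had 0.9 FPKM in both Crx-/- samples against 1.5 and 1.4 FPKM in WT, a difference of -0.37 (limma adjusted p = 0.0155) that lost its call when any of 3 of the 4 samples was left out. In Nrl-/- it rose by 0.74 (limma adjusted p = 0.00045), and in CrxRip/+ by 0.32, which passed the threshold. The CrxRip/Rip difference of -0.19 did not pass. Acvrl1, which lies 8.5 kb from Ankrd33, thus had the signs of Ankrd33 in all 4 mutants. Its levels were far lower and its fall in Crx-/- far smaller.

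The genes with the pattern most like that of Ankrd33 were found by the root mean square gap between log2(FPKM + 1) differences from WT over the 8 mutant samples of an age, among genes with at least 2 FPKM in WT. At P2 the nearest of 488 genes were Cox6b2, a subunit of cytochrome c oxidase, with a gap of 0.23, Ano2, a calcium-activated chloride channel, with 0.33, Cd59a, a complement inhibitor, with 0.36, Llgl2, a cell polarity gene, with 0.39, and Zfp365 with 0.40. Cox6b2 had 4.7 and 4.8 FPKM in Crx-/- against a mean of 9.75 ± 0.35 FPKM in WT, and it stood at 75.4% of WT for CrxRip/+, 66.7% for CrxRip/Rip, 48.7% for Crx-/- and 75.4% for Nrl-/-. The order of its Crx genotypes was that of Ankrd33, with a shallower minimum. Zfp365 departed most in Nrl-/-, at 43.5% of WT.

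At P21 no gene came close to Ankrd33. The smallest gaps among 1153 genes were 1.35 for Wdr78, 1.39 for Fam107b, 1.40 for Ccdc113, 1.47 for Insl5 and 1.5 for Pnpla3. Wdr78 and Ccdc113 belong to cilia, Insl5 encodes an insulin-like peptide and Pnpla3 a lipid hydrolase. Ccdc113 had 5.9 and 5.0 FPKM in CrxRip/+, 1.8 and 2.1 in CrxRip/Rip, 0.5 and 0.7 in Crx-/-, 3.3 and 5.7 in Nrl-/- and 4.9 and 4.1 in WT. It shares the minimum in Crx-/-, at 13.3% of WT, but stood at 43.3% in CrxRip/Rip, where Ankrd33 stood at 83.4%. Pnpla3 had 65.0 and 63.5 FPKM in Nrl-/- against 23.0 and 22.3 FPKM in WT. All 5 were lowest in Crx-/-, at 13.3% to 27.4% of WT, against 3.35% for Ankrd33.

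Over both ages, 146 genes could be ranked, and the nearest were Ano2 with a gap of 1.15, Llgl2 with 1.20, Prcd with 1.22, Impg2 with 1.29 and Rp1l1 with 1.31. Prcd is a disc protein, Impg2 a proteoglycan of the matrix around photoreceptors and Rp1l1 a protein of the photoreceptor axoneme. Ano2 had 20.5 and 17.0 FPKM in CrxRip/+, 12.4 and 10.4 in CrxRip/Rip, 7.5 and 6.7 in Crx-/-, 20.0 and 19.7 in Nrl-/- and 20.2 and 20.2 in WT at P21. At that age CrxRip/+ and Nrl-/- stayed near WT and Crx-/- was lowest. At P2 Ano2 was lowest in CrxRip/Rip, at 43.4% of WT against 53.3% in Crx-/-. The P2 mean of each of the 5 genes was lower in CrxRip/Rip than in Crx-/-, which that of Ankrd33 was not. These genes were picked for their likeness, so their values carry no test.

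**Figure D4:**
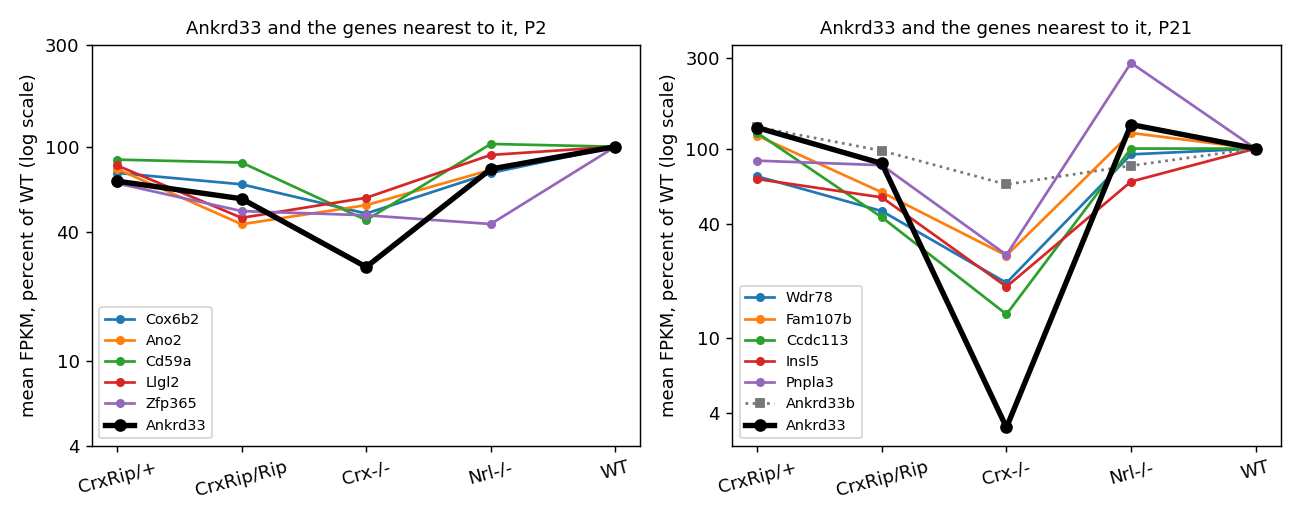
Mean FPKM as a percent of WT on a log scale (vertical axis) by genotype (horizontal axis) for Ankrd33 in black and the 5 genes nearest to it, at P2 (left) and P21 (right). Points are means of 2 samples, and the dotted line at P21 is the paralogue Ankrd33b. In Crx-/- retina Ankrd33 lies below all of them, at 3.35% of WT at P21 and 27.4% at P2. Its P2 difference in Nrl-/- turns positive under rescaling.

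Promoter sequences were looked up for Ankrd33, Ankrd33b and the 5 nearest genes at P21, and searched on both strands for TAATCC, the core motif bound by CRX and OTX2. RefSeq promoters of GRCm38.p6, from 250 bases before to 50 bases after the start, were used for 5 of these 7 genes, leaving out Ankrd33 and Wdr78. The motif was present in Ankrd33b and Ccdc113, which are shown for that reason. All 5 genes were lowest in Crx-/- retina at P21. Those other than Ankrd33b were picked for likeness to Ankrd33, so this low level says nothing about the motif. Capitals mark the motif as it reads on the gene's strand, GGATTA, the reverse complement of TAATCC.
Ankrd33b, chr15:31367710-31368009, minus strand: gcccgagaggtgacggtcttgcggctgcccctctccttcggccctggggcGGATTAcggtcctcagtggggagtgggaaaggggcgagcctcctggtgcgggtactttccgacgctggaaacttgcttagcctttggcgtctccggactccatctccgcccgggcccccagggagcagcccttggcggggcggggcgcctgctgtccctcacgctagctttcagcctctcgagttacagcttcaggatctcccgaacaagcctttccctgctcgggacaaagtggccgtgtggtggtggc
Ccdc113, chr8:95533850-95534149, plus strand: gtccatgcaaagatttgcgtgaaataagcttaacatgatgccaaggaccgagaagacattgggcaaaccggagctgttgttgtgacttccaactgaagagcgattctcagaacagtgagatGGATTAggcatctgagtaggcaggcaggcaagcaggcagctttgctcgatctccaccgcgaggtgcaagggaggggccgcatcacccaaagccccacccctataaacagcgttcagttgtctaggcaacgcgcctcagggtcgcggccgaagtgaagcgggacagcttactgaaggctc
The motif began 200 bases before the start in Ankrd33b and 129 bases before it in Ccdc113. Fam107b, Insl5 and Pnpla3 did not have these letters in the window. Of 32851 mouse promoters of the same length, 7.06% held the motif. A match describes the sequence and was not tested as a binding site.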

How the data were processed

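Whole retina of 5 genotypes was profiled at P2 and P21, with 2 samples per genotype and age, grouped by the sample titles. RNA libraries were directional, per the labels' protocols. The deposited tables, 1 per age, give FPKM per sample, rounded by the authors to 1 decimal, with the authors' adjusted p-values and the authors' log2 fold changes. DESeq is named in the submitters' processing notes, without a version. For the aligner, counter and genome build, the sources used here give no name. Read depth is unknown, so no counting interval was computed.

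Each table was fitted with limma 3.58.1 (R 4.3.3) on log2(FPKM + 1), with 1 term per genotype, a variance trend and empirical Bayes moderation, which left 5 residual degrees of freedom plus 2.95 prior ones at P2 and 3.06 at P21. Two-sided p-values were adjusted with the Benjamini-Hochberg method over all genes of a table and comparison, with a threshold of 0.05. An exact permutation test of 2 samples against 2 cannot go below p = 0.33, so calls rest on the pooled spread. The fit was checked on simulated data in which some genes were changed in 1 genotype only. That check did not cover a shift of the median gene, as in Nrl-/- at P2. The member, the gene lists and the comparisons were chosen with earlier results of these data known. Ankrd33 itself was left out of list counts. Named genes were the 5 nearest by root mean square gap per age and over both ages, the ankyrin repeat genes, the genes within 500 kb, the photoreceptor transcription factors and up to 4 phototransduction genes per list by WT level. Acbd7, Gsta4, Piezo1 and Slc1a5 were chosen after their values were seen. Symbols were matched to RefSeq by accession for 563 of 566 and 1485 of 1497 genes, and Prcd is listed under an older symbol.

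Alternatives were other pseudocounts, a filter on low values, rescaling by median-of-ratios size factors, fits of only the genotypes compared, no variance trend, a replicate block, leaving out single samples, and the authors' own values.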

Additional observations from a re-analysis of the deposited data

Results flagged for a closer look

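Ankrd33 lay on opposite sides of WT at P2 and P21 in 2 mutants, with both mutant samples beyond both WT samples at each age. Its log2(FPKM + 1) difference from WT was 0.36 at P21 and -0.42 at P2 in CrxRip/+, and 0.42 at P21 and -0.27 at P2 in Nrl-/-. The P2 value in Nrl-/- becomes 0.58 under rescaling, so the opposite signs there depend on the scaling. In CrxRip/+ rescaling gave 0.19 at P21 and -0.35 at P2, and the authors' log2 fold changes were 0.15 and -0.45. Separation of 2 samples from 2 is weak, since an exact permutation test cannot go below p = 0.33. The differences between ages were not tested for any gene given here, because the tables were scaled separately.

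Among the other named genes, the cone factor Rxrg was below WT at P2 and above it at P21 in all 4 mutants, with P21 differences of 2.32 for CrxRip/+, 1.22 for CrxRip/Rip, 3.22 for Crx-/- and 2.47 for Nrl-/-; its P2 value in Nrl-/- also turns positive under rescaling, to 0.28. Sall3 did so in CrxRip/Rip, with 0.62 at P21 and -0.51 at P2. Gnat2, the cone transducin subunit, had 1.08 in CrxRip/+, 0.27 in CrxRip/Rip and 0.74 in Crx-/- at P21, against -2.23, -2.48 and -0.59 at P2. Gnb3 in CrxRip/+ had 1.08 at P21 and -1.39 at P2. Gngt2 had 3.16 in CrxRip/+ and 1.88 in CrxRip/Rip at P21, against -0.26 and -1.66 at P2. In Nrl-/-, Opn1sw had 3.97 at P21 and -0.06 at P2, and Guca1a had 0.22 at P21 and -0.60 at P2, and both P2 values turn positive under rescaling. The reverse order was seen for Pdc in Crx-/-, with -0.86 at P21 and 0.32 at P2, and for Rgs9, with -0.30 in Crx-/- and -0.28 in Nrl-/- at P21, against 0.27 and 0.14 at P2. Several of these values did not pass limma's adjusted threshold, namely the P2 values of Rxrg and Pdc in Crx-/-, Gngt2 in CrxRip/+ and Opn1sw in Nrl-/-, the P21 value of Guca1a, and all those of Rgs9.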

How the results depend on the processing

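Differences of Ankrd33 from WT moved with the pseudocount and with rescaling, and the one change of sign came from rescaling. At P2 a pseudocount of 0.1 gave -0.52 for CrxRip/+, -0.79 for CrxRip/Rip, -1.78 for Crx-/- and -0.34 for Nrl-/-, and one of 0.5 gave -0.47 in CrxRip/+ and -1.51 in Crx-/-. Ratios of mean FPKM gave -0.53, -0.81, -1.87 and -0.35 in the same order, and the authors' deposited table gave -0.84 for CrxRip/Rip, -1.90 for Crx-/- and -0.17 for Nrl-/-. Rescaling gave -0.35 for CrxRip/+, -0.50 for CrxRip/Rip, -1.10 for Crx-/- and 0.58, a change of sign, for Nrl-/-. At P21 Crx-/- gave -4.85 and -4.65 with pseudocounts of 0.1 and 0.5, -4.90 as a ratio of means and -5.12 in the authors' deposited table. CrxRip/+ and Nrl-/- at P21 gave 0.19 each under rescaling, and 0.15 and 0.32 in the authors' deposited table. The cause of these shifts was not tested.

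Leaving out single samples gave -0.45 to -0.38 for CrxRip/+, -0.70 to -0.53 for CrxRip/Rip, -1.31 to -1.24 for Crx-/- and -0.31 to -0.24 for Nrl-/- at P2. At P21 it gave 0.24 to 0.49, -0.49 to -0.06, -4.56 to -4.31 and 0.35 to 0.49. All 8 differences kept their sign. The CrxRip/Rip value at P21 was -0.06 without its replicate 1 and -0.49 without its replicate 2, and the CrxRip/+ value at P21 was 0.24 without its replicate 1. Counts of phototransduction genes called stayed within 1.5 times under all alternatives, 28 to 32 of 32 at P21 when single samples were left out. With a lone sample in a group, its spread is assumed to equal that of the other groups.

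Deviations of same-numbered samples had correlations of -0.24 to 0.33 at P2 and -0.30 to 0.24 at P21, with 4 of 10 pairs of genotypes over 0.1 at each age, so the numbers were not taken to pair samples. A replicate block left the differences of Ankrd33 at -0.42, -0.62, -1.27 and -0.27 at P2 and 0.36, -0.27, -4.44 and 0.42 at P21.

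Among the single genes recomputed under every alternative, 10 P2 differences in Nrl-/- also turned positive under rescaling, namely Pde6g 0.67, Opn1sw 0.98, Rcvrn 0.59, Guca1a 0.18, Thrb 0.41, Rxrg 0.28, Cox6b2 0.59, Ano2 0.60, Llgl2 0.75 and Prcd 0.32. The list does not cover the other genes of the table. Over these single genes, 4132 settings gave the same side of the threshold, 28 a gained call, 156 a lost call and 10 a reversal. The authors' rounding to 0.1 FPKM and the unknown depth limit all values below 1 FPKM.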
